A study of Mus musculus with 6 samples.

Results

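The genes described here encode the proteins of the cytosolic ribosome. They were taken as every array probe whose annotated symbol is Rpl or Rps followed by a number, or is *Rplp0*, *Rplp1*, *Rplp2* or *Rpsa*, with the 7 probes of the Rps6k kinase genes left out. This gave 84 probes for 66 genes, of 25697 probes and 16593 annotated genes on the array. Of these probes, 47 (35 genes) belong to the large subunit and 28 (23 genes) to the small subunit. A further 7 probes (6 genes) belong to paralogs with symbols ending in l or l1, and 2 probes match the rule but name no ribosomal protein, *Rps19bp1*, the gene of an RPS19-binding protein, and the retrogene *Rps23rg1*. *Rpl10a*, *Rpl11*, *Rpl26* and *Rps27a* were not analysed here.

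RNA of mouse calvaria cells, which come from the skull, was measured on 6 Illumina MouseRef-8 BeadChips, 3 labelled Mmp13 knockout and 3 labelled wild type, all of strain C57BL/6. The study's methods describe the same arrays differently, as *Osx1*-positive cells sorted by GFP, with a floxed ERα gene (ERα f/f) beside GFP:*Osx1-Cre* in the first group and GFP:*Osx1-Cre* alone in the other, and give an age of 3 to 4 days for its calvaria cell donors. In that account both groups carry the GFP:*Osx1-Cre* transgene, which drives Cre in osteoblast precursors, and ERα, the oestrogen receptor encoded by *Esr1*, is deleted in the first. The groups are therefore called by their labels throughout, and no source says if arrays of the same group stem from different animals or cultures, so the p-values measure only the spread between these arrays.

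A ribosome consists of a small subunit that reads the mRNA and a large subunit that joins amino acids, and nearly every ribosomal protein is present in a single copy per ribosome. The mRNAs of ribosomal proteins are among the most abundant in dividing cells and begin with a terminal oligopyrimidine tract, a C followed by a run of pyrimidines, through which mTORC1 and the RNA-binding protein LARP1 set their translation together. Bone-forming cells secrete large amounts of collagen, which places a high demand on protein synthesis.

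The sequences around the start site are shown because this is where the tract lies. They are given for the genes past the test below that had a sequence, and for *Rpl39*, *Rps6* and *Rps27*, which did not pass it. RefSeq promoter sequences (GRCm38.p6) were found for 49 of the 58 subunit genes. *Rpl3* and *Rpl30* had no entry. Each sequence below runs 5′ to 3′ on the gene's own strand, from 40 bases before the listed start to 20 bases from the start onward, and capitals mark the longest pyrimidine run with a C and its 4 following pyrimidines inside the 10 bases on each side of the start.
Rpl7a, chr2:26910767-26910826, plus strand: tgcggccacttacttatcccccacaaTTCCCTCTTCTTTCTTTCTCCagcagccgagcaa
Rpl31, chr1:39367811-39367870, plus strand: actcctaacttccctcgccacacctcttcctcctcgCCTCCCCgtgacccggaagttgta
Rplp0, chr5:115559427-115559486, plus strand: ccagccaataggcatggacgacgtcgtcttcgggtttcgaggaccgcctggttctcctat
Rpl39, chrX:37085203-37085262, minus strand: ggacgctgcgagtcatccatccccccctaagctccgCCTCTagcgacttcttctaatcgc
Rpl39l, chr16:10170188-10170247, plus strand: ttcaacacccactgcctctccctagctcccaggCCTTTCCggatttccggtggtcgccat
Rps6, chr4:86857348-86857407, minus strand: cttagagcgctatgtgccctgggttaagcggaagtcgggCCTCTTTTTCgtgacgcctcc
Rps27, chr3:90213629-90213688, minus strand: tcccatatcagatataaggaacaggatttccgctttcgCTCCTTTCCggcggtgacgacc

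The run is 21 bases long in *Rpl7a*, 10 in *Rps6*, 9 in *Rps27*, 7 in *Rpl31* and in the paralog *Rpl39l*, and 5 in *Rpl39*. *Rplp0* has none in this window. Each marked run begins before the listed start, and that of *Rpl39l* also ends before it. The run length is therefore not the length of a tract in the mRNA as listed. Over the 49 subunit genes, 26 (53.1%) held a C followed by 4 pyrimidines within 10 bases of the listed start on the sense strand, against 29.3% of 17492 protein-coding genes in the same table. The share was 57.1% for the large subunit (16 of 28) and 47.6% for the small subunit (10 of 21). In the window of 250 bases before to 50 after the start, on either strand, the letters CCGGAAG stood in 40.8% of the subunit genes and in 12.9% of protein-coding genes, AAGATGG in 18.4% and 7.18%, and TATAAA in 10.2% and 14.8%. CCGGAAG and AAGATGG can share the letters AAG and were each counted on their own. A match is a description of the letters alone.

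The arrays were first set against their labels. *Mmp13*, which encodes a collagenase, had log2 levels of 12.41, 12.90 and 12.78 on arrays labelled knock out, against 9.07, 9.53 and 9.82 on arrays labelled wild type (probe ILMN_2737685, log2 difference 3.22, limma adjusted p = 0.000172), so the gene named as deleted was higher, not lower, under the knockout label. *Esr1* was not detected on any array by either of its 2 probes. Over the tested probes, Pearson's r lay between 0.994 and 0.997 within the arrays labelled knock out, between 0.949 and 0.988 within the arrays labelled wild type, with the lowest between wild type 2 and wild type 3, and between 0.925 and 0.975 across the groups. Of the markers, 5 of 8 tested osteoblast lineage genes were higher and *Sp7* was lower on arrays labelled knock out. Of 10 tested macrophage and osteoclast genes 9 were lower. *Ctsk* was not, with 12.10, 12.12 and 12.25 on arrays labelled knock out, against 11.98, 12.06 and 12.07 on arrays labelled wild type (0.12, limma adjusted p = 0.308). *Ptprc*, *Itgam*, *Acp5*, *Dcstamp* and *Ocstamp* of this list were not detected. Normalized levels taken back from log2 and summed over the list, *Ctsk* included, were 8640 to 8870 on arrays labelled knock out and 13500 to 14000 on arrays labelled wild type. All 4 of 4 genes of dividing cells were higher (5890 to 6200 on arrays labelled knock out, 2060 to 2450 on arrays labelled wild type). None of 5 endothelial and 2 erythroid genes on the array was detected often enough to be tested. The part of these cell markers in the ribosomal protein values was not tested, and in bulk RNA fewer cells of a type and less RNA per cell cannot be told apart.

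Most ribosomal protein probes gave a signal above background. A probe counted as detected where the scanner software gave a detection p under 0.01, and was tested where this held on at least 3 of the 6 arrays. By this rule 72 of the 84 probes were tested, 40 of the large subunit, 25 of the small subunit, 6 of paralogs and that of *Rps19bp1*. Of these, 70 were detected on all 6 arrays. The other 12 probes were detected on no array, and with them *Rpl6*, *Rpl17*, *Rplp2*, *Rps23*, *Rpsa* and the paralog *Rpl3l*, whose product replaces RPL3 in striated muscle, had no tested probe. *Rpl4*, *Rpl23* and *Rpl37* had both a tested and an undetected probe, and such undetected probes give no level for the gene. The 75 subunit probes took 6.35%, 5.85% and 5.80% of the summed scanner signal on the arrays labelled knock out, against 5.82%, 5.76% and 5.71% on the arrays labelled wild type. Knock out 1 stood highest, and the lowest array labelled knock out lay between 2 arrays labelled wild type, so the groups overlapped.

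The subunit genes as a whole differed little between the groups. On the authors' normalized log2 scale the median over the tested large subunit probes was 12.71, 12.66 and 12.63 on arrays labelled knock out, against 12.72, 12.69 and 12.71 on arrays labelled wild type. That over the small subunit probes was 13.27, 13.34 and 13.37 on arrays labelled knock out, against 13.23, 13.21 and 13.15 on arrays labelled wild type. The large subunit medians overlapped between the groups, and the small subunit medians did not. The median log2 difference between the groups was -0.07 for the large subunit, with 15 probes above and 25 below 0, and 0.02 for the small subunit, with 13 above and 12 below. The median over all 11089 probes tested was -0.02. Single differences ran from -0.63 to 0.71 in the large subunit and from -0.34 to 0.25 in the small subunit, and the median size of a difference, whatever its sign, was 0.12 and 0.08 on the log2 scale, against 0.20 over all probes.

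**Figure D1:**
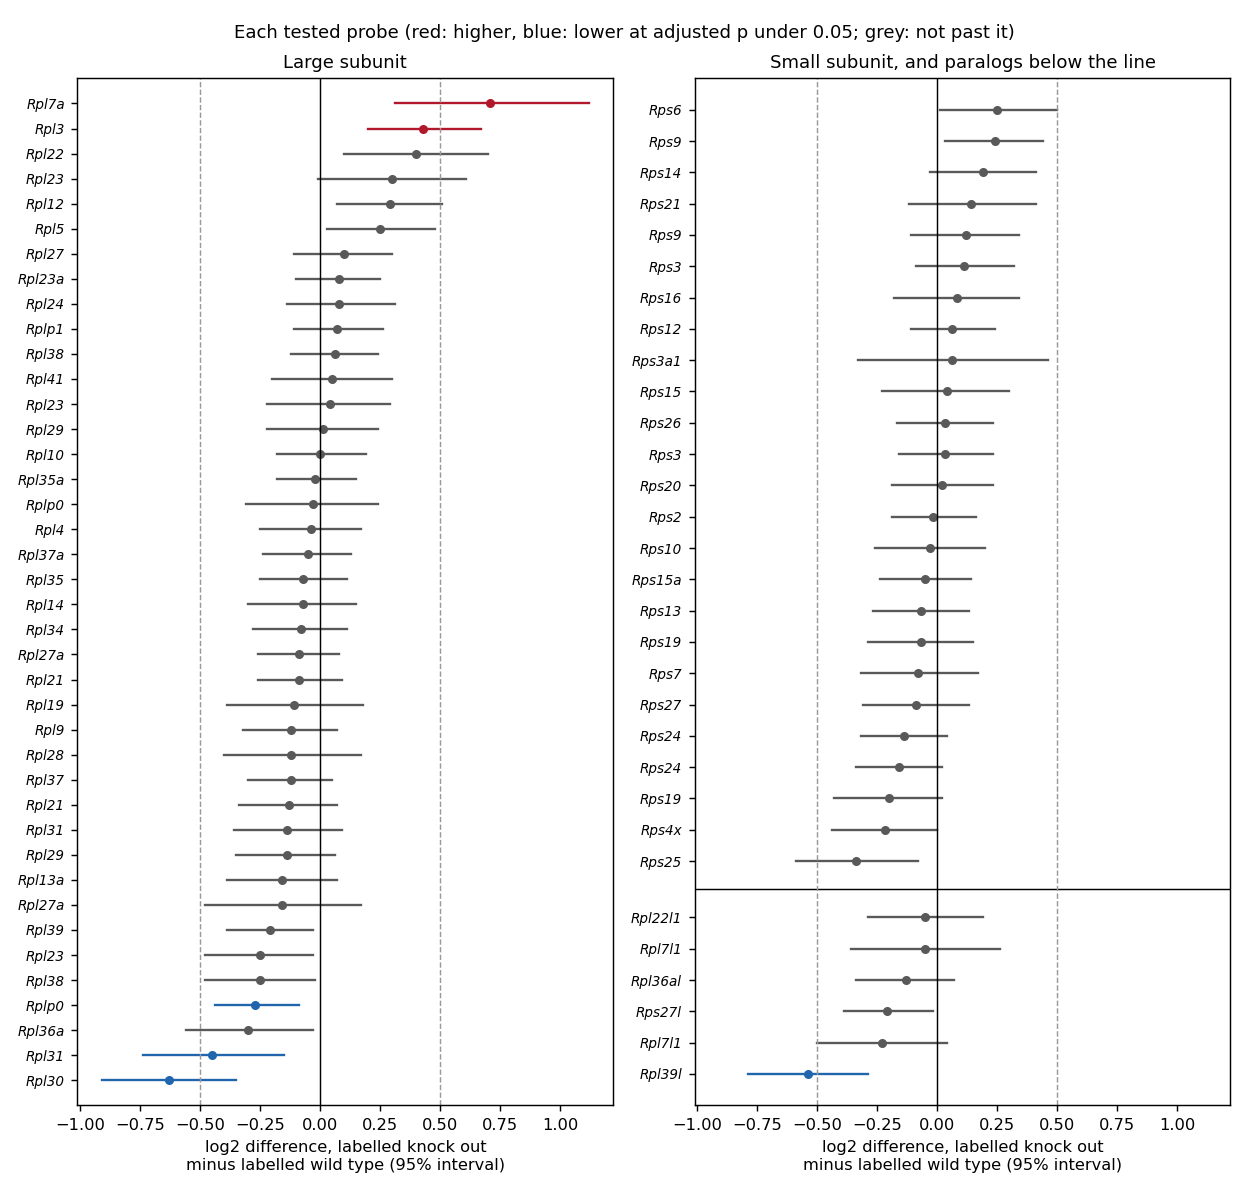
Log2 difference (arrays labelled knock out minus arrays labelled wild type, n = 3 each) of each tested ribosomal protein probe with its 95% interval from limma, large subunit at left, small subunit and paralogs at right; red and blue mark probes past an adjusted p of 0.05, and dashed lines lie at 0.5 on each side of 0. The intervals of 32 of 40 large subunit probes and 24 of 25 small subunit probes lie within the dashed lines.

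Few of these probes passed the test. With limma and an adjusted p under 0.05, 2 of the 40 large subunit probes were higher on the arrays labelled knock out and 3 were lower. Over all probes 19.2% were called, 9.69% higher and 9.51% lower, and the share in the large subunit was 12.5%. No small subunit probe was called by limma. Its lowest adjusted p was 0.0721, and the other settings tried called between 0 and 1 in each direction. An unadjusted limma p under 0.05 was found for 4 of its 25 probes, against 3985 of 11089 over all probes. The 95% intervals reflect the spread between these arrays on the authors' normalized scale, and do not cover the choice of normalization. They lay within 0.5 on the log2 scale for 24 of 25 small subunit probes, their outermost bounds being -0.59 and 0.50, and for 32 of 40 large subunit probes. Over all probes, whose median level was lower (8.09, against 12.66 for the large and 13.24 for the small subunit), this held for 56.8%.

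**Figure D2:**
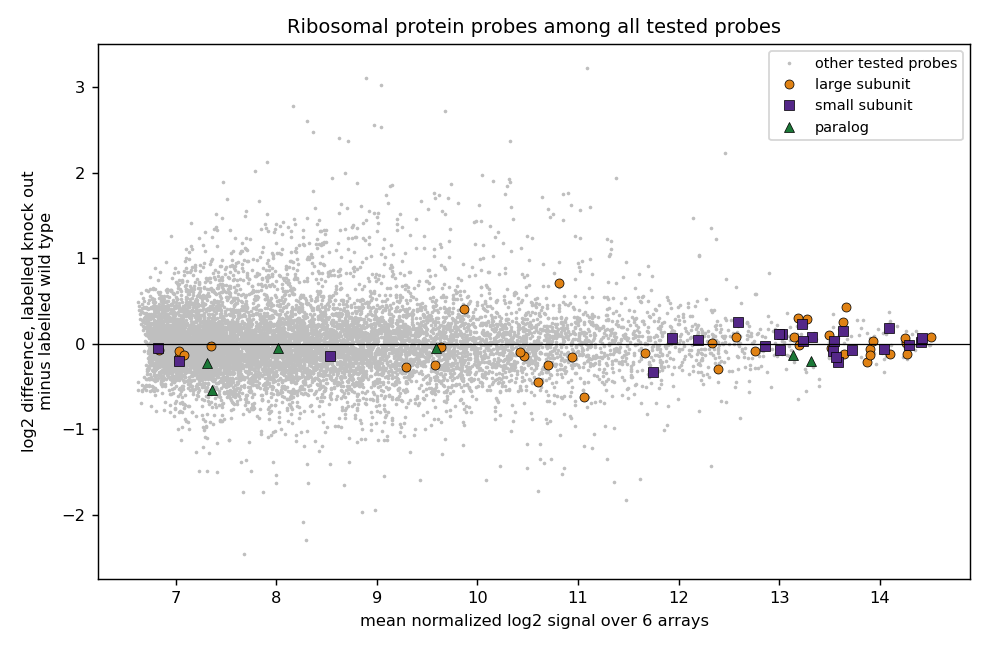
Mean normalized log2 signal over the 6 arrays (x axis) and log2 difference, arrays labelled knock out minus arrays labelled wild type (y axis), of 11089 tested probes, with large subunit, small subunit and paralog probes marked. Most ribosomal protein probes lie at the bright end, where the differences of all probes are smaller.

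Brightness differed between these probes and the rest, so the count was also read among bright probes alone. Of 123 tested probes with a mean log2 level of at least 13, 13 (10.6%) were called. Of the 37 ribosomal protein probes among them 1 (2.7%) was called, against 12 of the other 86 (14.0%), a difference that was not tested. The scale of a BeadChip is compressed near its upper end, the highest scanner signals here being 22827.5 to 26487.4, and the part of this in the small differences of bright probes was not tested. Levels are not compared between genes, since probes differ in how well they bind.

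Past the threshold on the higher side were *Rpl7a* and *Rpl3*. *Rpl3* encodes a protein that reaches toward the peptidyl transferase centre, where peptide bonds form. Its log2 level was 13.92, 13.91 and 13.83 on arrays labelled knock out, against 13.47, 13.28 and 13.60 on arrays labelled wild type. Every array labelled knock out lay above every array labelled wild type, and the difference was 0.43 ± 0.10 (SE, n = 3 each), 1.35-fold, with limma's adjusted p = 0.0233. *Rpl7a*, whose product sits on the outside of the large subunit, had levels of 11.25, 11.08 and 11.17 on arrays labelled knock out, against 10.39, 10.14 and 10.84 on arrays labelled wild type. The groups did not overlap, the arrays labelled wild type spread more widely, and the difference was 0.71 ± 0.17, 1.64-fold, with limma's adjusted p = 0.0282. The 21-base pyrimidine run printed above spans its listed start and begins before it.

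On the lower side were *Rpl30*, *Rpl31* and *Rplp0*. *Rpl30*, whose yeast counterpart binds its own transcript to limit splicing, had log2 levels of 10.59, 10.80 and 10.85 on arrays labelled knock out, against 11.58, 11.25 and 11.30 on arrays labelled wild type. All arrays labelled knock out lay below all arrays labelled wild type, and the difference was -0.63 ± 0.12, a fold of 0.647, with limma's adjusted p = 0.0119, the lowest among the ribosomal protein probes. *Rpl31*, whose product lines the rim of the exit tunnel, had levels of 10.38, 10.39 and 10.37 on arrays labelled knock out, against 10.94, 10.54 and 11.00 on arrays labelled wild type, by probe ILMN_3073486. The arrays labelled knock out were nearly identical and all below, and the difference was -0.45 ± 0.13 with limma's adjusted p = 0.0476. *Rplp0* encodes the base of the acidic stalk that recruits elongation factors, and is widely used as a reference gene. By probe ILMN_2744356 it had levels of 9.17, 9.09 and 9.21 on arrays labelled knock out, against 9.43, 9.41 and 9.44 on arrays labelled wild type. Again the groups did not overlap, and the difference was -0.27 ± 0.07 with limma's adjusted p = 0.0451.

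**Figure D3:**
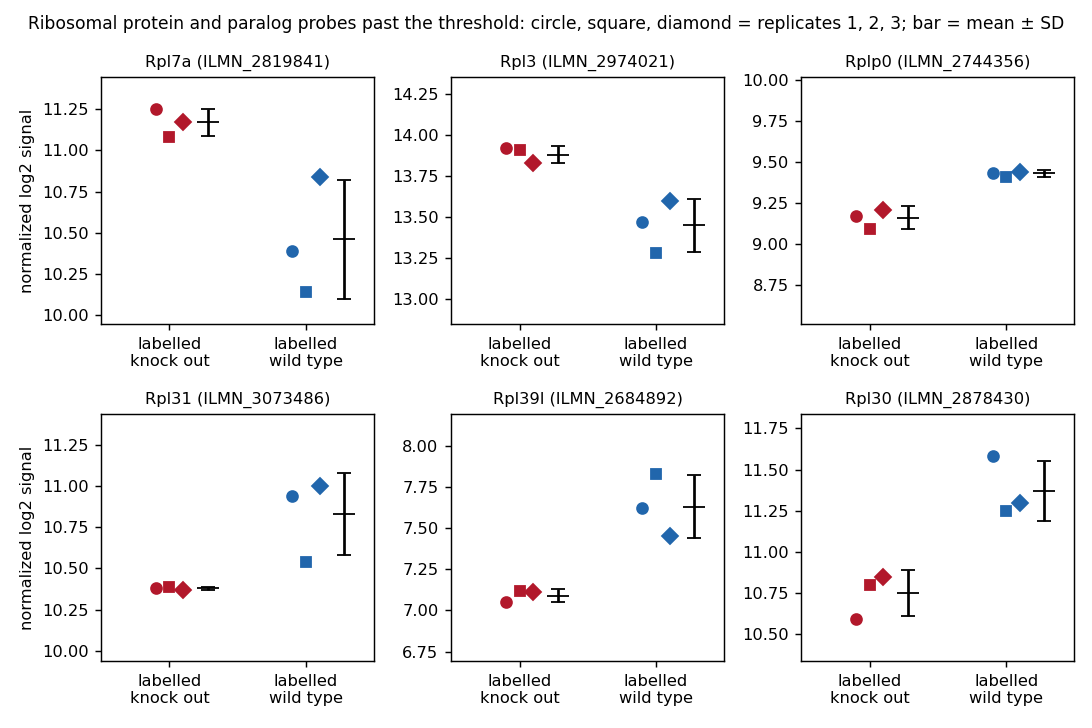
Normalized log2 signal of the 6 ribosomal protein and paralog probes past an adjusted p of 0.05, arrays labelled knock out in red and arrays labelled wild type in blue, each symbol 1 array, with mean ± SD beside them; the y axes have the same span in all panels and do not start at 0. In all 6 panels the groups do not overlap, and in 4 of them the arrays labelled knock out lie below.

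These calls were lost in many fits with 1 array fewer, while the differences stayed within 1.5 times their size. Leaving out 1 array at a time, the difference lay between 0.55 and 0.91 for *Rpl7a*, 0.35 and 0.51 for *Rpl3*, -0.69 and -0.52 for *Rpl30*, -0.59 and -0.36 for *Rpl31*, -0.30 and -0.23 for *Rplp0* and -0.63 and -0.44 for *Rpl39l*. In these fits *Rpl30* kept its call in 4 of 6 fits, *Rpl7a*, *Rpl3* and *Rpl39l* in 2 of 6, and *Rpl31* and *Rplp0* in 1 of 6. No ribosomal protein probe was called without knock out 1 or without knock out 2, only *Rpl30* without knock out 3 or without wild type 1, and 10 probes without wild type 2 or without wild type 3. *Rpl30*, *Rpl7a* and *Rpl39l* were called under all 4 other normalizations of the scanner signal, *Rpl3* under 2 of them and *Rpl31* and *Rplp0* under none. All 6 kept the sign of their difference in every fit.

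For 12 genes more than 1 probe was tested, and no gene had 2 probes called. The second *Rpl31* probe, ILMN_3152328, had levels of 13.71, 14.01 and 13.79 on arrays labelled knock out, against 13.93, 14.00 and 13.98 on arrays labelled wild type. Here the groups overlapped, and its difference was -0.14 (95% interval -0.36 to 0.09). The second *Rplp0* probe, ILMN_1249815, had 7.33, 7.27 and 7.40 on arrays labelled knock out, against 7.40, 7.55 and 7.13 on arrays labelled wild type, with a difference of -0.03 (-0.31 to 0.24). Whether 2 probes of a gene differ from each other was not tested. The probes of *Rpl23*, *Rpl29* and *Rpl38* differed in sign, those of *Rpl23* giving -0.25, 0.04 and 0.30. Ribosomal protein genes have many processed pseudogenes of near-identical sequence, so a probe may also bind their transcripts.

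Several large subunit genes lay just outside the threshold or are known for roles beyond the ribosome. *Rpl22*, whose product also binds cellular and viral RNAs, had log2 levels of 10.05, 10.03 and 10.11 on arrays labelled knock out, against 9.73, 9.39 and 9.87 on arrays labelled wild type (difference 0.40, limma adjusted p = 0.0695). The groups did not overlap, and *Rpl22* was called without wild type 3 (0.51) and with array weights (0.37). *Rpl5*, which with RPL11 and 5S rRNA binds the p53 inhibitor MDM2, had 13.79, 13.68 and 13.82 on arrays labelled knock out, against 13.36, 13.63 and 13.54 on arrays labelled wild type (0.25, 95% interval 0.03 to 0.48, limma adjusted p = 0.105). *Rpl12*, at the base of the stalk, was just as close to the threshold, with 13.36, 13.51 and 13.39 on arrays labelled knock out, against 13.09, 13.27 and 13.04 on arrays labelled wild type (0.29, limma adjusted p = 0.071). Neither gene's groups overlapped. Both were called without wild type 2, and *Rpl12* also with the trend and robust variance model. *Rpl12* was singled out after its values were seen.

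None of the other large subunit genes chosen for a known special role passed the test with all 6 arrays. Without wild type 3, *Rpl38* was called by probe ILMN_2594971 (-0.32). *Rpl38*, needed in the mouse for translation of Hox mRNAs and for a normal axial skeleton, gave 0.06 (95% interval -0.12 to 0.24, and 0.17 to 0.19 with median scaling or cyclic loess of the scanner signals) by probe ILMN_3135931 and -0.25 (-0.48 to -0.02, limma adjusted p = 0.121) by probe ILMN_2594971. *Rpl39*, at the exit tunnel, gave -0.21 (-0.39 to -0.03, limma adjusted p = 0.101), with 13.73, 13.82 and 13.76 on arrays labelled knock out, against 14.04, 13.98 and 13.91 on arrays labelled wild type, and no overlap. *Rpl10*, placed last in the maturing large subunit, gave 0.00 (-0.18 to 0.19), and 0.13 and 0.15 with median scaling and cyclic loess. *Rplp1*, which pairs with *Rplp2* on the stalk, gave 0.07 (-0.11 to 0.26), but 0.33 with median scaling and 0.35 with cyclic loess. Both lay outside that interval, and neither was past the threshold.

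In the small subunit no named gene passed the test with all 6 arrays. *Rps6*, the substrate of S6 kinase downstream of mTORC1, had log2 levels of 12.77, 12.76 and 12.62 on arrays labelled knock out, against 12.44, 12.31 and 12.64 on arrays labelled wild type. Wild type 3 lay within the range of the arrays labelled knock out, and the difference was 0.25 (95% interval 0.01 to 0.50, limma adjusted p = 0.128). Without wild type 3 *Rps6* was called (0.34). *Rps25*, which many viral internal ribosome entry sites require, had the largest difference of the subunit, with 11.66, 11.57 and 11.51 on arrays labelled knock out, against 12.06, 11.98 and 11.71 on arrays labelled wild type (-0.34, limma adjusted p = 0.0721). Its groups did not overlap, and it was called without wild type 3 and with array weights. *Rps25* was singled out after its values were seen.

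*Rps14* and *Rps19* are known from anaemias, loss of 1 copy of the first in the 5q- syndrome and mutation of the second in Diamond-Blackfan anaemia. *Rps14* had 14.21, 14.16 and 14.20 on arrays labelled knock out, against 14.10, 13.84 and 14.07 on arrays labelled wild type, a difference of 0.19 (95% interval -0.03 to 0.41) without overlap. *Rps19* gave -0.07 (-0.29 to 0.15) by probe ILMN_2862280 and -0.20 (-0.43 to 0.02) by probe ILMN_2754355, for which neqc gave -0.43. The latter probe was dim, with scanner signals of 111.2 to 152.4 where the array medians were 85.1 to 108.9. *Rps3*, at the mRNA entry channel, gave 0.11 and 0.03 by its probes, and the X-linked *Rps4x* gave -0.22 (-0.44 to -0.00, limma adjusted p = 0.138). *Rps27* gave -0.09 (-0.31 to 0.13). None of these was past the threshold.

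Of the 6 tested probes of paralogs, which stand for 5 genes, 1 passed the test (16.7%, against 19.2% over all probes). The groups overlapped in 4 of them, and 33.3% were without overlap, against 42.4% over all probes. The median difference of the paralog probes was -0.17 with all 6 below 0, where 5849 of all 11089 probes were below 0. *Rpl39l*, a paralog of *Rpl39* that is known from male germ cells, had log2 levels of 7.05, 7.12 and 7.11 on arrays labelled knock out, against 7.62, 7.83 and 7.45 on arrays labelled wild type. The groups did not overlap, and the difference was -0.54 ± 0.11 (SE, n = 3 each), a fold of 0.687, with limma's adjusted p = 0.0142. With neqc, which subtracts background, the difference was -0.93. *Rps27l*, a p53 target in human cells, had 13.16, 13.26 and 13.22 on arrays labelled knock out, against 13.34, 13.44 and 13.48 on arrays labelled wild type, a difference of -0.21 (-0.39 to -0.02, limma adjusted p = 0.11). *Rpl22l1*, which RPL22 represses in the mouse, gave -0.05 (-0.29 to 0.19), with the groups overlapping. The probe of *Rps19bp1* gave -0.13 (-0.35 to 0.09).

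Across all 72 tested probes, 7 had all arrays labelled knock out above all arrays labelled wild type and 12 had them all below, 26.4% in either direction. Over all probes 20.3% lay all above and 22.1% all below, 42.4% in either direction. For the large subunit this was 5 above and 7 below, and for the small subunit 2 above and 3 below.

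**Figure D4:**
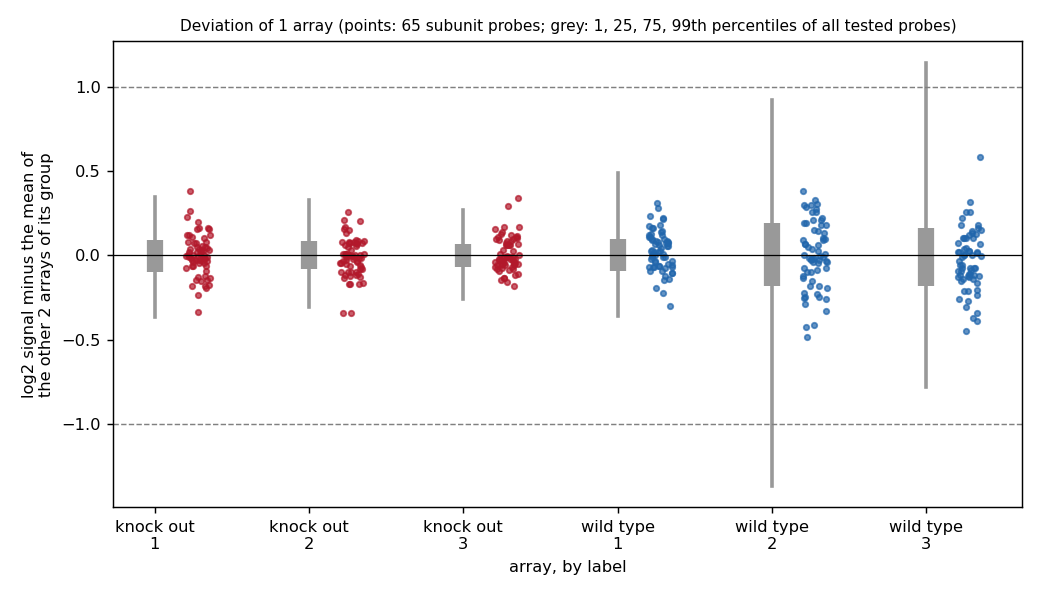
Deviation of each array from the mean of the other 2 arrays of its group (log2), for 65 large and small subunit probes (points; red for arrays labelled knock out, blue for arrays labelled wild type) beside all tested probes (thick grey bar, 25th to 75th percentile; thin grey line, 1st to 99th). No point passes 1 on either side, and all probes spread most on wild type 2 and wild type 3.

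On the authors' quantile-normalized log2 scale no ribosomal protein value stood out on a single array. This normalization gives every array the same set of values, and its part in the small deviations was not tested. The scanner signals, whose sum was lowest on knock out 1 (7339776, against 9827445 to 11700630 on the others), were not compared in this way. Each normalized value was set against the mean of the other 2 arrays of its group. Of 432 values of the tested ribosomal protein probes, 0 lay over 1 on the log2 scale from it, against 531 of 66534 values over all probes (0.798%). Over 0.5 there was 1 value (0.231%, against 4.24% over all probes), that of *Rpl7a* on wild type 3, which lay 0.58 above the others. The next were *Rpl7a* on wild type 2 at -0.48, *Rps3a1* on wild type 3 at -0.45, *Rpl7l1* on knock out 1 at 0.44, *Rpl31* on wild type 2 at -0.43 and *Rpl22* on wild type 2 at -0.41. These values were ranked after they were computed and fell mostly on wild type 2 and wild type 3.

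The same arrays carried the spread of the whole data set. Over all probes 314 values (2.83%) on wild type 2 and 204 (1.84%) on wild type 3 lay over 1 from the other arrays of the group, against 12 on wild type 1 and 1, 0 and 0 on knock out 1, 2 and 3. The median size of the deviation of the subunit probes was 0.06, 0.07 and 0.07 on knock out 1, 2 and 3 and 0.08, 0.14 and 0.12 on wild type 1, 2 and 3, against 0.09, 0.08 and 0.07 and then 0.09, 0.18 and 0.17 over all probes. On wild type 2 and wild type 3 the subunit probes thus deviated less than probes at large. Those were less bright, with a median level of 8.09, against 12.66 for the large and 13.24 for the small subunit. Deviations among bright probes alone were not compared.

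**Figure D5:**
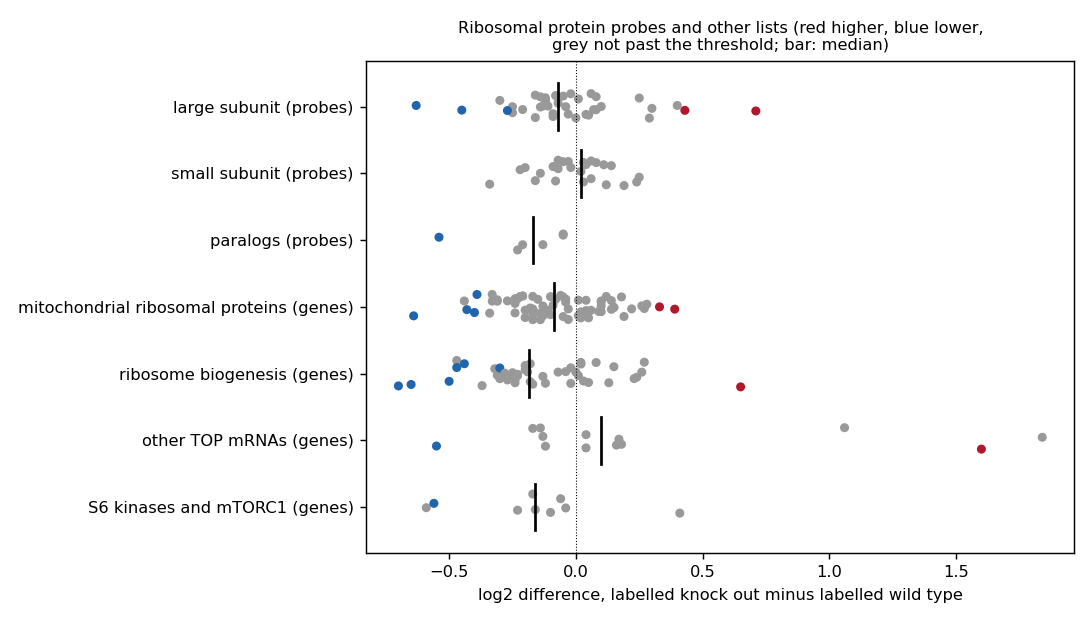
Log2 difference (arrays labelled knock out minus arrays labelled wild type) of tested ribosomal protein probes by subunit and of tested genes in 4 other lists, 1 point each, red higher and blue lower at an adjusted p under 0.05, grey not past it, with the median as a bar. The medians lie between -0.18 for ribosome biogenesis and 0.10 for the other terminal oligopyrimidine mRNAs.

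Genes that work with the ribosomal proteins were read from the same fit, each gene by its brightest probe. Over all 7695 genes taken so, 10.5% were higher and 10.2% lower, with a median of -0.03. *Fau*, a ribosomal protein whose symbol the rule does not match, had log2 levels of 12.71, 12.54 and 12.69 on arrays labelled knock out, against 12.91, 12.91 and 12.63 on arrays labelled wild type (-0.17, limma adjusted p = 0.282). Of 46 tested genes of ribosome biogenesis, which make and assemble the subunits, 1 passed upward, 6 passed downward and 39 stayed within the threshold (15.2% called), with a median of -0.18. *Nop10*, part of the H/ACA particles that modify rRNA, had 10.65, 10.85 and 10.84 on arrays labelled knock out, against 11.43, 11.51 and 11.50 on arrays labelled wild type (-0.70, limma adjusted p = 0.00208). *Nop2*, an rRNA methyltransferase, gave -0.65 (limma adjusted p = 0.0479), *Rrp12*, an export factor of the subunits, -0.50 (0.00408), and *Rrp1b*, a nucleolar protein, 0.65 (0.0067).

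Of 14 tested genes whose mRNAs share the terminal oligopyrimidine tract without encoding ribosomal proteins, 1 was higher, 1 was lower and 12 did not pass, with a median of 0.10. *Tpt1* was lower by a dim probe (-0.55, limma adjusted p = 0.0246). Its log2 levels were 6.69, 6.98 and 7.02 on arrays labelled knock out, against 7.45, 7.62 and 7.27 on arrays labelled wild type. Every value lay below 8.09, the median level over all tested probes. How well this probe reads the *Tpt1* mRNA was not tested. *Hnrnpa1*, a splicing factor, had 11.22, 11.04 and 11.13 on arrays labelled knock out, against 9.86, 8.46 and 10.29 on arrays labelled wild type (1.60, limma adjusted p = 0.0365), with an SD of 0.09 on arrays labelled knock out and 0.96 on arrays labelled wild type. Of 9 tested genes on a list of S6 kinases and mTORC1 genes, 8 did not pass, with a median of -0.16. *Akt1s1*, an mTORC1 inhibitor, was lower (-0.56, limma adjusted p = 0.0491). The only Rps6k genes tested were *Rps6ka3* (-0.06) and *Rps6ka5* (-0.16).

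The ribosome of mitochondria is built from a separate set of proteins. Among 70 tested genes, 2 passed upward and 4 downward (8.57% called, where 10.5% of all genes were higher and 10.2% lower), with a median of -0.08. Normalized levels taken back from log2 and summed over this list were 76400 to 77200 on arrays labelled knock out, against 81000 to 84400 on arrays labelled wild type. For ribosome biogenesis the sums were 46200 to 48200 against 51600 to 53100, and for the other terminal oligopyrimidine mRNAs 78400 to 80300 against 69700 to 76300. *Mrpl33* had the lowest adjusted p of those named, with 11.68, 11.75 and 11.59 on arrays labelled knock out, against 12.29, 12.33 and 12.31 on arrays labelled wild type (-0.64, limma adjusted p = 0.00192). *Mrps10* (-0.43) and *Mrps6* (-0.40) were also lower, and *Mrpl2* (0.39) and *Mrpl17* (0.33) were higher. No difference between these lists and the cytosolic ribosomal proteins was tested.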

How the data were processed

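Signals were read from Illumina MouseRef-8 BeadChips hybridized with biotinylated cRNA of 6 samples. The deposited intensity values are BeadStudio signals with a detection p-value beside each. The authors normalized them with the lumi package (version not given in the sources used here) by quantile normalization and deposited log2 values, whose median is 6.59 on every array. The deposited tables order probes differently, so the 25697 probes were linked through their ranks, which were identical on each of the 4 arrays named in both. A pair of arrays labelled knock out shares a heading in the scanner table and was used by group only.

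Probes were named from the platform annotation (23978 with 1 gene, none with several, 1719 not listed), with symbols checked against RefSeq of GRCm38.p6. The log2 values of 11089 probes (detection p under 0.01 on at least 3 of 6 arrays) were compared with lmFit and eBayes of limma 3.58.1 in R 4.3.3, with no covariate and Benjamini-Hochberg adjustment over all of them at a threshold of 0.05, after a check on simulated data. An exact permutation test of 3 against 3 arrays could not go below a two-sided p of 0.1. Number of arrays limits the precision. Deviations from group means were not alike between arrays of the same number (r = 0.105, -0.055 and -0.05), so no pairing was used. Named were the called probes, a list of ribosomal protein genes with known special roles, up to 3 called genes of each other list in each direction, and *Mmp13* and *Esr1*. The members, lists and naming rule were chosen with earlier results of these data known. Alternatives changed the normalization (neqc with an offset of 16, median scaling with and without the ribosomal protein probes, cyclic loess), the filter, the variance model, the probes counted and the arrays.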

Additional observations from a re-analysis of the deposited data

How the results depend on the processing

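Other settings moved the counts more than the medians. With median scaling of the scanner signals the large subunit had 1 probe higher and 1 lower, with the ribosomal protein probes left out of the scaling 1 and 1, and with neqc or cyclic loess 1 was lower. The count of lower calls over all probes was 572 with median scaling, 582 with the ribosomal protein probes left out of it and 613 with the replicate number as a block. With that replicate block, although the numbers do not pair the arrays, the large subunit had 1 probe higher and 1 lower and the small subunit 0. Array weights, whose estimation did not fully converge, called 1 small subunit probe lower (*Rps25*). Leaving out 1 array at a time gave 448 to 1842 higher and 392 to 1967 lower calls over all probes, the lowest without knock out 3 and the highest without wild type 3. It gave 0 to 4 higher and 0 to 4 lower large subunit calls, both highest without wild type 2, and 0 to 1 higher and 0 to 1 lower small subunit calls. The small subunit median lay between -0.02 (without wild type 3) and 0.03, and the large subunit median between -0.09 and -0.05. Why these counts moved was not tested. No setting moved the median of all probes by over 0.1. The sign turned only in uncalled probes near 0. *Rplp0* (ILMN_1249815) gave 0.02 with median scaling, 0.01 with the ribosomal protein probes left out, 0.0 with array weights or without knock out 2 and 0.06 without wild type 2 (-0.15 to 0.06 over single arrays left out). *Rps19* (ILMN_2862280) gave 0.01 with cyclic loess and 0.02 without wild type 2 (-0.11 to 0.02). *Rps3* (ILMN_2594103) gave -0.01 with either median scaling. *Rpl10* gave -0.03 without knock out 2 and -0.01 without knock out 3. *Rpl22l1* gave 0.02 with array weights and 0.03 without knock out 1 (-0.13 to 0.03).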
